A study of Mus musculus with 21 samples.

Results

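Strongly labelled 3′ UTR loci were singled out in mouse heart RNA after a short pulse of 4-thiouracil, a uracil analogue that cells use for RNA mainly through the enzyme uracil phosphoribosyltransferase (Uprt). A locus was a member where at least 8% of its pooled reads carried a T>C conversion in Lmna +/+ hearts with Uprt and at most 3% did so in Lmna +/+ hearts without it. At least 300 pooled reads in each of those groups were also required, and mitochondrial loci were left out. Of 122116 loci kept from 208307 deposited 3′ UTR intervals, 12468 passed the read minimum and 1155 of these (9.26%) were members. The member shares in both Lmna +/+ groups are therefore the choice itself and are given only as a description.

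The method, SLAM-IT-seq, reads the built-in analogue as a T>C conversion after alkylation of the RNA with iodoacetamide. RNA that a cell renews quickly takes up more of the analogue within a given time than long-lived RNA, and RNA made in cells without Uprt takes up little of it. A high share after 1 pulse can thus come from quick renewal or from transcription mainly in the cells that hold Uprt, and with hearts taken at a single time, 6 hours after the analogue, these cannot be told apart. The members are called strongly labelled below, not fast-renewed. Lmna encodes lamin A/C, structural proteins of the nuclear lamina.

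All 21 mice carried the transgene Myh6MCM (Tg/0), a Cre recombinase that tamoxifen switches on and that is made in cardiomyocytes from the Myh6 promoter, and all received tamoxifen for 4 days at 6 to 8 weeks of age. The analogue was given 2 weeks later, and RNA came from the free wall of the left ventricle. With the transgene Uprt (Tg/0) there were 8 Lmna +/+ mice (4 females and 4 males) and 6 Lmna F/F mice (4 females and 2 males). Without it there were 3 Lmna +/+ mice, all male, and 4 Lmna F/F mice (2 females and 2 males). F is read here as the floxed allele, which the recombinase acts on in cardiomyocytes, while other cells of the wall keep it. The libraries were of bulk tissue, in which fewer cells of a type and less RNA per cell cannot be told apart.

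Each library held 25976707 to 51007741 reads on the loci, and members took 1.79% to 2.28% of them. The deposited intervals carry transcript IDs, of which 0 could be matched to the reference table supplied. Members are therefore given by position on mm39, gene lists and cell type markers were not scored, and the level of Lmna itself was not analysed here. The name of each of the 122116 loci marks it as a 3′ UTR.

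Members were found on every autosome and on X. Their share of the eligible loci ran from 7.31% on chromosome 14 to 11.9% on chromosome 8 among the autosomes, and it was 5.64% on X. The median member interval was 1579 bases long, against 902 bases in the 11313 other loci past the read minimum. Members made up 4.14% of eligible intervals of 300 bases or fewer and 14.3% of those over 3000 bases. The part of length in the choice was not tested. The median share of T among the bases was 29.8% in members and 27.7% in the other loci. The 1155 members had 1151 distinct transcript IDs, and 2 pairs on the same strand lay within 100 bases of each other.

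Members varied widely in depth and in share. Their pooled reads in Lmna +/+ Uprt hearts ran from 419 to 343753 with a median of 2042. Their pooled T>C share in that group ran from 8.01% to 44.2% with a median of 10.2%, and 9 in 10 were at or below 14.6%. The limits cut through a continuous range. The 5 members closest to the 8% line had shares of 8.01% to 8.02%, and the 5 loci just outside it had 7.98% to 7.99%. At the other line, 3490 eligible loci reached 8% with Uprt but were over 3% without it.

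Summed over all members, the T>C share of a heart was high wherever Uprt was present. In the 8 Lmna +/+ Uprt hearts that chose the members it was 10.2% at the lowest, 10.9% at the median and 15.0% at the highest. In the 6 Lmna F/F Uprt hearts, which the choice did not use, it was 9.54%, 11.04% and 13.1%. In the hearts without Uprt it was 1.52%, 2.36% and 2.78% for Lmna +/+ and 2.36%, 3.78%, 3.19% and 3.98% for Lmna F/F. Every heart with Uprt lay above every heart without it, and the Lmna genotypes overlapped. In the other eligible loci the same sum was 4.32% to 5.64% with Uprt and 2.69% to 3.81% without. The choice set the member shares in both Lmna +/+ groups, with and without Uprt, so these groups cannot test the gap between members and the rest. In the Lmna F/F hearts, which the choice did not use, members and the rest lay much closer together without Uprt than with it.

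**Figure D1:**
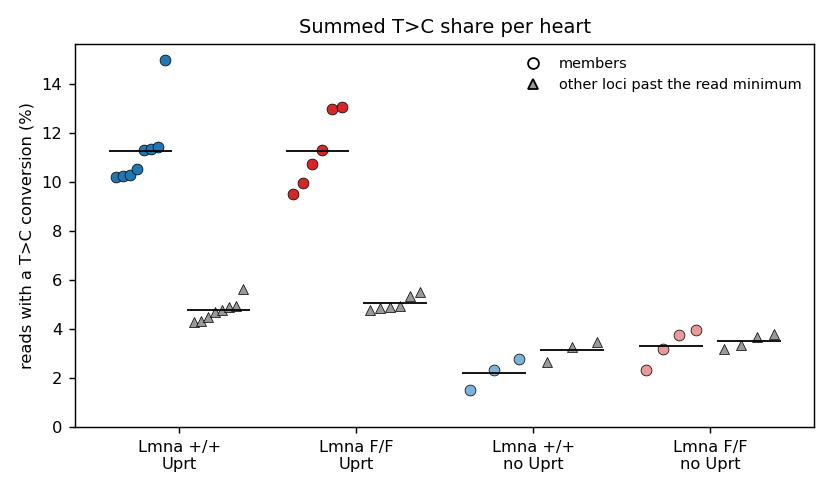
Summed T>C share of each heart (vertical axis, percent of reads) for the 1155 members (circles) and the 11313 other loci past the read minimum (triangles), in the 4 groups along the horizontal axis, with bars at the group means. Members lie at 9.54% or more in every heart with Uprt and at 3.98% or less in every heart without it.

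The same picture held per base. T>C conversions per 100 reference T bases over members were 0.423 to 0.654 in Lmna +/+ Uprt hearts and 0.412 to 0.579 in Lmna F/F Uprt hearts. They were 0.0596 to 0.111 in Lmna +/+ hearts without Uprt and 0.0893 to 0.162 in Lmna F/F hearts without Uprt. The highest Lmna +/+ Uprt value in both measures came from replicate 3, a female.

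Whether the label carried over to mice that had no part in the choice was asked in the 10 Lmna F/F hearts. The T>C share was higher with Uprt than without it in 760 of 1155 members (65.8%) and lower in 1, at an adjusted p of 0.05 in a quasi-likelihood test with edgeR of reads with and without a conversion. Over all 16292 loci tested, 34.1% were higher and 0.135% lower. Among the other loci past the read minimum the shares were 40.2% and 0.155%. The median log2 odds ratio was 2.09 in members and 1.23 over all loci tested. In 1131 members the estimate was above 0. Every Lmna F/F Uprt heart lay above every Lmna F/F heart without Uprt at 612 members, against 26.1% of all loci tested. The reverse order was seen at 0 members, against 0.0368% of all loci tested. Members passed the read minimum in both Lmna +/+ groups, and the 395 without a call of higher were shallower, with a median of 1065 pooled reads in Lmna F/F Uprt against 2624.5 in the 760.

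The thresholds themselves carried over less well than the direction. In Lmna F/F, 896 members reached 8% with Uprt, 680 stayed at or below 3% without it, and 510 did both. The rule applied to the Lmna F/F groups in place of the Lmna +/+ groups gave 1419 loci, of which 506 were also members, 43.8% of the members and 35.7% of the Lmna F/F list. Across the 1155 members the pooled shares of the 2 Uprt groups had a Pearson correlation of 0.73 and a Spearman correlation of 0.61. Both groups share the sequence of each locus. The Lmna +/+ Uprt share was itself used in the choice and cut at 8%, so the correlations are a description and no support. The correlations include 107 members whose share split between hearts, described below, and were not computed without them.

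**Figure D2:**
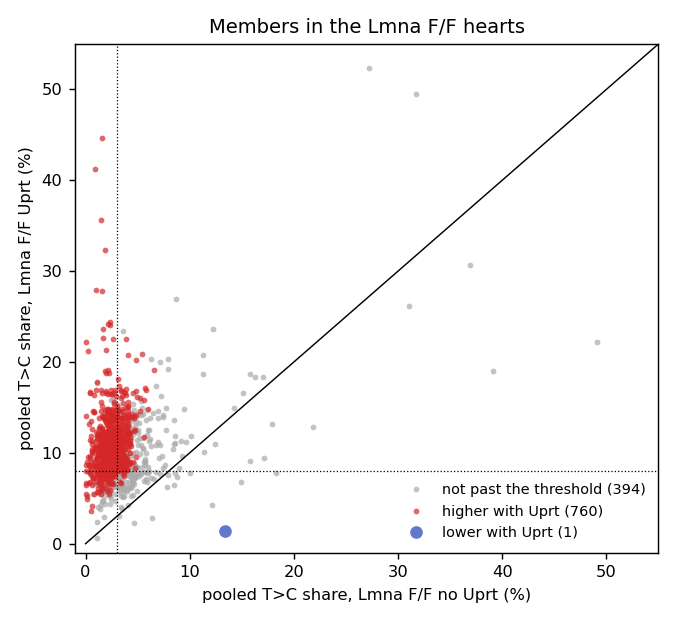
Pooled T>C share of each of the 1155 members in Lmna F/F hearts without Uprt (horizontal axis, percent) and with Uprt (vertical axis, percent), with the line of equal shares and dotted lines at 3% and 8%. Red members (760) were higher with Uprt, the blue member (1) was lower, and grey members passed no threshold.

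The members with the most reads showed the label in its plainest form, and they are described first because counting error matters least there. The most read member, chr1:43162234-43162673 on the minus strand, had 24833 to 62990 reads in a library. Its T>C share was 6.32%, 10.5% and 15.2% (lowest, median and highest) in Lmna +/+ Uprt hearts and 11.03%, 11.9% and 14.8% in Lmna F/F Uprt hearts. Without Uprt it was 1.74%, 2.82% and 3.35% in Lmna +/+ and 1.85%, 3.13%, 3.27% and 2.71% in Lmna F/F. The Lmna F/F groups did not overlap, and the log2 odds ratio between them was 2.31 ± 0.16 (SE, adjusted p = 1.7e-06 in edgeR).

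The next 2 by depth had much the same profile. At chr14:120666362-120669109 (plus strand) the Lmna F/F Uprt shares were 8.76%, 9.96% and 11.6%, and the Lmna F/F shares without Uprt were 1.74%, 3.03%, 2.58% and 2.37%. At chr19:57021165-57025655 (minus strand) they were 8.27%, 9.92% and 13.5% against 1.54%, 2.80%, 3.11% and 2.70%. Of the 10 most read members, 9 were higher with Uprt in Lmna F/F, with log2 odds ratios of 2.00 to 2.88, and the other, chr8:95580778-95581523, is described next. Among the 9, the highest share in any heart was 20.3%, at chr6:72409782-72411959 in Lmna +/+ Uprt replicate 6.

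A second kind of member did not behave like a uniform label. At all 10 members with the highest pooled share in Lmna +/+ Uprt, at least 1 heart with Uprt had 30% or more and at least 1 other had less than 10%. At chr8:84972867-84973181 (minus strand, 315 bases), 11 of the 14 hearts with Uprt had shares of 46.2% to 52.1%, and the other 3 had 2.81% to 2.93%. The 7 hearts without Uprt had 1.16% to 2.63%. The depth there was 4050 to 8708 reads in a library, and the widest 95% Wilson interval, for Lmna +/+ Uprt replicate 6, was 46.2% to 49.2%. The gap between high and low hearts was far larger than counting error. In Lmna F/F the log2 odds ratio of Uprt over none was 4.98 ± 0.74 (SE, adjusted p = 0.000195 in edgeR).

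The 3 low hearts at that locus were Lmna +/+ Uprt replicates 1 and 2 and Lmna F/F Uprt replicate 1. The same 3 were the low hearts at another member on that chromosome, chr8:65045576-65046156 (minus strand), with 1.07% to 1.89% against 28.6% to 36.5% in the other 11. At another, chr8:95580778-95581523 (plus strand), 6 of the 14 hearts with Uprt had 44.4% to 48.8% and 8 had 2.79% to 4.79%. Here 3 of the 4 Lmna F/F hearts that lack Uprt also had 44.3% to 47.3%, and the remaining one had 3.22%. A high share at this locus thus also occurred without Uprt.

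Such split values were more than single cases. At 107 members (9.26%) a heart with Uprt reached 30% while another lay under 10%. The same was true of 458 of the 11313 other loci (4.05%). Members were chosen for a high pooled share in Lmna +/+ Uprt, which a few hearts at 30% or more can supply. The choice thus favours split loci among members, and the gap between these rates supports nothing about members. At 34 members the share reached 20% in a heart without Uprt, in Lmna F/F each time, since the choice kept out loci that did so in Lmna +/+. Over all eligible loci this was the case at 6.08%. Of the 34, 26 also split between hearts with Uprt, and 5 of the 10 members with the highest share were among them. At these members the share did not follow Uprt alone, and the data go against calling them strongly labelled. The deposited T>C reads do not separate the label from a T>C difference between a mouse and the reference sequence, and whether known variants were masked is not given in the sources used here. What separates the hearts was not tested.

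The loci with a large or a small Uprt difference in Lmna F/F were also of this split kind. The 5 largest differences in pooled share were 43.0, 40.4, 34.2, 30.5 and 26.9 percentage points, at chr8:84972867-84973181, chr2:150249061-150249896, chr11:83655712-83656107, chr11:84856632-84856870 and chr8:65045576-65046156. At chr11:84856632-84856870, 4 of the 6 Lmna F/F Uprt hearts and 3 of the 8 Lmna +/+ Uprt hearts had 36.6% to 47.9%, and all 7 others with Uprt had 0.245% to 4.5%. The 5 smallest differences were negative, from -26.9 to -9.02 points, and a heart without Uprt reached 20% at each of those 5 loci. At chr4:118219781-118219941, where the pooled difference was -9.02 points, the fitted log2 odds ratio was 0.20, of the opposite sign. Leaving out the 107 split members left 715 of 1048 (68.2%) higher with Uprt and 0 lower. The split was defined with shares of the hearts with Uprt, Lmna F/F included, and it took in the only member called lower. The 0 thus follows from the omission and supports nothing. The same omission was not made over all loci tested.

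The only member called lower with Uprt in Lmna F/F was chr9:37449079-37449615 (plus strand). It was singled out after its values were seen. All 6 Lmna F/F Uprt hearts had low shares, 0.917%, 1.36% and 1.84%, and the 4 Lmna F/F hearts without Uprt had 26.4%, 31.0%, 1.42% and 3.55%. Its log2 odds ratio was -2.95 ± 0.87 (SE, adjusted p = 0.018 in edgeR), and the call was lost when replicate 5 of Lmna F/F Uprt, or replicate 1 or replicate 2 of Lmna F/F no Uprt, was left out. The 8 Lmna +/+ Uprt hearts were split. Replicates 1, 2, 8 and 4 had 1.58%, 1.62%, 1.66% and 6.12%, and replicates 5, 7, 3 and 6 had 27.9%, 30.5%, 34.8% and 35.9%.

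**Figure D3:**
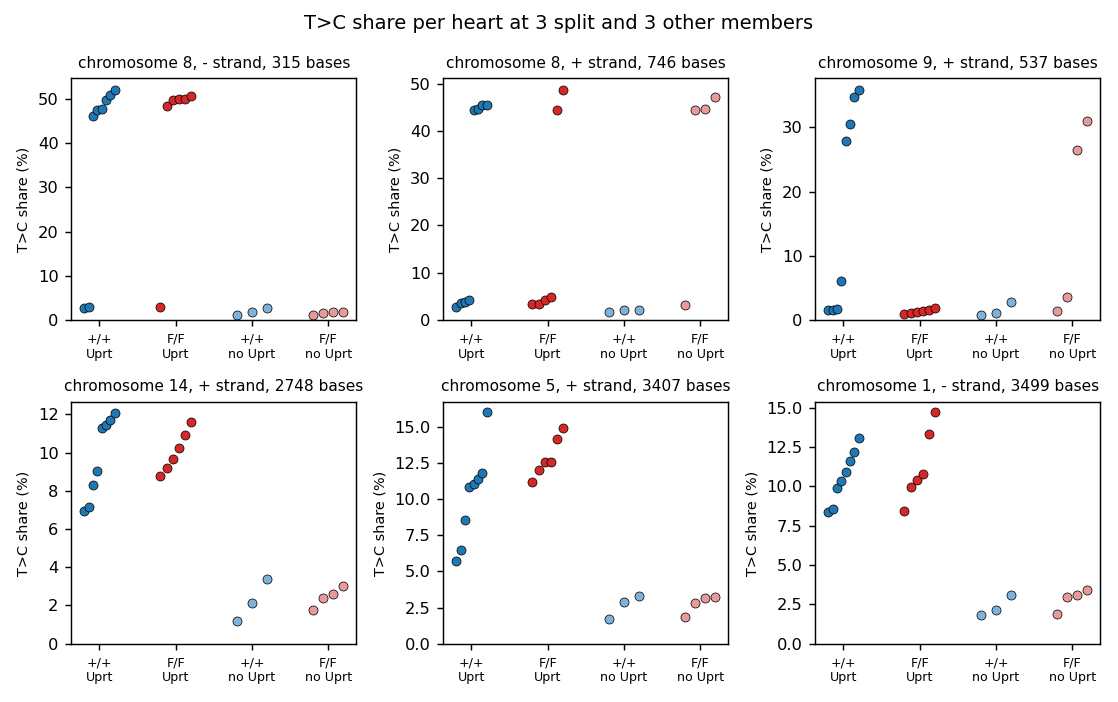
T>C share of each heart (vertical axis, percent of reads on the locus) at 3 split members (upper row) and 3 other members (lower row), with 1 point per heart in the 4 groups along the horizontal axis. In the upper row every point lies at 6.12% or less or at 26.4% or more, and in the lower row the hearts with Uprt form 1 range above those without it.

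The level of the members, meaning all reads with or without a conversion, was compared between Lmna genotypes in hearts with Uprt, which asks whether these transcripts differ in amount between the genotypes. At an adjusted p of 0.05 in edgeR, 19 members were higher in Lmna F/F (1.65%) and 9 were lower (0.779%). Over all 31368 loci tested, 2.19% were higher and 0.261% were lower. Among the other loci past the read minimum the shares were 2.79% and 0.566%. The minimum was set on the Lmna +/+ groups alone, which favours loci lower in Lmna F/F. The count of falls thus supports nothing about members. The median log2 fold change was -0.06 in members and 0.01 over all loci tested. With library size alone in place of TMM the split was 44 higher and 4 lower, and the median over all loci tested moved to 0.16 and that of members to 0.09. Without Lmna F/F Uprt replicate 2 there were 12 higher, without Lmna +/+ Uprt replicate 3 there were 16 lower, and without Lmna F/F Uprt replicate 1 there were 3 lower.

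Every Lmna F/F Uprt heart lay above every Lmna +/+ Uprt heart at 11 of the 19 higher members, and below it at 5 of the 9 lower ones. Called or not, 16 members (1.39%) had all Lmna F/F Uprt hearts above and 9 (0.779%) had all below, against 1.42% and 0.383% of all loci tested. The order of all below is favoured by the read minimum as well. Of the 28 called members, 3 (10.7%) lie on chromosome 3, where the reference table places Lmna, against 58 of all 1155 members (5.02%). Split members made up 5 of the 28 (17.9%), against 107 of the 1155 (9.26%). These differences rest on few loci and were not tested. Levels are given as CPM, reads scaled to a common library total, and they compare hearts at 1 locus, not loci with each other.

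The largest rise was at chr5:74253721-74256066 (plus strand, ENSMUST00000066220.4). It had 2.05, 3.95 and 4.96 CPM (lowest, median and highest) in Lmna +/+ Uprt hearts and 7.97, 9.52 and 10.9 CPM in Lmna F/F Uprt hearts. Without Uprt the values were 3.98, 2.62 and 4.77 CPM in Lmna +/+ and 16.0, 14.1, 7.91 and 8.54 CPM in Lmna F/F. The genotypes did not overlap in either set of hearts. Its T>C share in Lmna +/+ Uprt hearts was uneven, from 2.35% to 32.2%. The log2 fold change was 1.30 ± 0.19 (SE, adjusted p = 0.00012 in edgeR) with Uprt and 1.56 ± 0.29 (SE, adjusted p = 0.0015) without it.

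At chr6:122910885-122911578 (plus strand, ENSMUST00000060484.9) the level was 4.31, 7.74 and 9.06 CPM in Lmna +/+ Uprt hearts and 11.8, 16.4 and 25.3 CPM in Lmna F/F Uprt hearts. Again the genotypes did not overlap with Uprt, and the log2 fold change was 1.28 ± 0.20 (SE, adjusted p = 0.00029 in edgeR). Without Uprt the level was 7.82, 4.44 and 5.78 CPM in Lmna +/+ and 25.7, 22.6, 8.73 and 19.5 CPM in Lmna F/F, likewise apart. Its T>C share, however, was split between hearts, from 1.40% to 35.2% with Uprt, and reached 29.2% in Lmna F/F no Uprt replicate 1.

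The most read of the risen members was chr16:37654289-37656876 (plus strand). It had 97.5, 112 and 149 CPM in Lmna +/+ Uprt hearts and 181, 231 and 291 CPM in Lmna F/F Uprt hearts. Without Uprt it had 105, 81.5 and 89.5 CPM in Lmna +/+ and 569, 453, 152 and 232 CPM in Lmna F/F. All 10 Lmna F/F hearts lay above all 11 Lmna +/+ hearts. The log2 fold change was 1.05 ± 0.18 (SE, adjusted p = 0.00095 in edgeR) with Uprt and 2.05 ± 0.29 (SE, adjusted p = 0.00015) without it. Its T>C share was split, with 32.3% to 35.7% in 5 hearts with Uprt and 1.40% to 2.79% in the other 9, so that this locus entered the members through 3 of the 8 Lmna +/+ Uprt hearts.

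Chr18:61263553-61265221 (plus strand) also rose with Uprt and had a split share. Its level was 53.5, 84.1 and 90.7 CPM in Lmna +/+ Uprt hearts and 112, 147 and 162 CPM in Lmna F/F Uprt hearts, a log2 fold change of 0.88 ± 0.14 (SE, adjusted p = 0.00025 in edgeR). Without Uprt it was 79.0, 69.6 and 78.0 CPM in Lmna +/+ and 192, 134, 74.8 and 164 CPM in Lmna F/F. There replicate 3 of Lmna F/F lay among the Lmna +/+ hearts and the other 3 above them. Its T>C share was 36.6% to 42.6% in 5 of 8 Lmna +/+ Uprt hearts and in 1 of 6 Lmna F/F Uprt hearts (42.4%), and 0.531% to 3.49% in the 8 others with Uprt. The pooled share therefore went from 26.5% to 9.82%, while the log2 odds ratio of -3.10 between genotypes had an adjusted p of 1.0 in edgeR.

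A risen member with an even label was chr1:167050452-167053950 (minus strand). Its level was 19.8, 23.2 and 29.5 CPM in Lmna +/+ Uprt hearts and 32.1, 47.7 and 54.8 CPM in Lmna F/F Uprt hearts, with no overlap. The log2 fold change was 0.94 ± 0.18 (SE, adjusted p = 0.0028 in edgeR). Without Uprt it had 19.7, 27.8 and 21.4 CPM in Lmna +/+ and 88.99, 101, 25.5 and 56.4 CPM in Lmna F/F, where replicate 3 of Lmna F/F lay below the highest Lmna +/+ heart. Its T>C share was 8.38%, 10.6% and 13.1% in Lmna +/+ Uprt hearts and 8.47%, 10.6% and 14.7% in Lmna F/F Uprt hearts. The genotypes overlapped in share.

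The other 5 of the 10 largest rises were at chr2:102641486-102644477, chr3:95416234-95416673, chr16:77358538-77361653, chr3:98335947-98339267 and chr11:121606883-121607132. Their log2 fold changes ran from 0.83 to 1.16, with adjusted p from 0.0040 to 0.036 in edgeR. At chr2:102641486-102644477 a single Lmna +/+ Uprt heart, at 10.5 CPM, lay above the lowest Lmna F/F Uprt heart, at 10.4 CPM. The call at chr3:95416234-95416673 was lost without Lmna F/F Uprt replicate 2, and that at chr16:77358538-77361653 without Lmna F/F Uprt replicate 5. The call at chr3:98335947-98339267 was lost without any of Lmna +/+ Uprt replicates 1, 4, 6, 7 and 8 or Lmna F/F Uprt replicates 1, 2, 3, 5 and 6. That at chr11:121606883-121607132 was lost without any of Lmna +/+ Uprt replicates 2, 4 and 6 or Lmna F/F Uprt replicates 1 and 2.

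The largest fall was at chr19:27311324-27314579 (plus strand, ENSMUST00000056708.4). It had 2.38, 3.84 and 5.55 CPM in Lmna +/+ Uprt hearts and 1.56, 1.93 and 3.13 CPM in Lmna F/F Uprt hearts. The groups overlapped, and the log2 fold change was -1.03 ± 0.24 (SE, adjusted p = 0.012 in edgeR). Without Uprt it had 2.92, 3.18 and 3.57 CPM in Lmna +/+ and 0.522, 1.24, 3.04 and 1.64 CPM in Lmna F/F, again with an overlap, and the log2 fold change was -1.33 ± 0.34 (SE, adjusted p = 0.020 in edgeR). It passed the read minimum with 400 pooled reads in Lmna +/+ hearts without Uprt, against 274 in the Lmna F/F hearts without it. The choice thus favours this fall, which gives no support of its own. The call with Uprt was lost without the sex term, at an adjusted p of 0.053.

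At chr3:99124224-99127519 (plus strand, ENSMUST00000004343.7) the level was 6.18, 7.46 and 10.4 CPM in Lmna +/+ Uprt hearts and 3.55, 4.63 and 5.53 CPM in Lmna F/F Uprt hearts, with no overlap. The log2 fold change was -0.81 ± 0.16 (SE, adjusted p = 0.0038 in edgeR). At chr2:132371002-132372662 (minus strand) it was 45.9, 66.6 and 86.4 CPM against 33.1, 39.8 and 52.4 CPM. The hearts with Uprt overlapped there, whereas those without it did not, with 64.1, 61.5 and 58.0 CPM in Lmna +/+ and 20.9, 33.5, 32.1 and 35.1 CPM in Lmna F/F. The log2 fold changes were -0.61 ± 0.14 (SE, adjusted p = 0.013 in edgeR) with Uprt and -0.97 ± 0.20 (SE, adjusted p = 0.0048) without it, and the call with Uprt was lost without Lmna F/F Uprt replicate 1 (adjusted p = 0.055).

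The most read member of all, chr1:43162234-43162673, was also among the 9. It had 1080, 1292 and 1497 CPM in Lmna +/+ Uprt hearts and 810, 910 and 1132 CPM in Lmna F/F Uprt hearts, a small overlap. Its log2 fold change was -0.48 ± 0.12 (SE, adjusted p = 0.028 in edgeR), and that p was 0.11 with library size alone and 0.056 to 0.084 when any of Lmna +/+ Uprt replicates 1, 6 and 8 or Lmna F/F Uprt replicates 1, 2, 3 and 5 was left out. The other 5 lower members were chr4:135541467-135542875, chr5:21091639-21091868, chr19:37671427-37672507, chr2:68040789-68042262 and chr9:58781970-58784556, with log2 fold changes from -0.93 to -0.43. Their calls were lost, in that order, without Lmna F/F Uprt replicate 1, without Lmna F/F Uprt replicate 5, without Lmna F/F Uprt replicate 1, and at the last 2 loci without any of 7 and of 11 single libraries. With library size alone the calls at the last 4 were lost as well. Chr4:135541467-135542875 also lay near the read minimum, with 367 pooled reads in Lmna +/+ hearts without Uprt against 237 in Lmna F/F hearts without it.

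**Figure D4:**
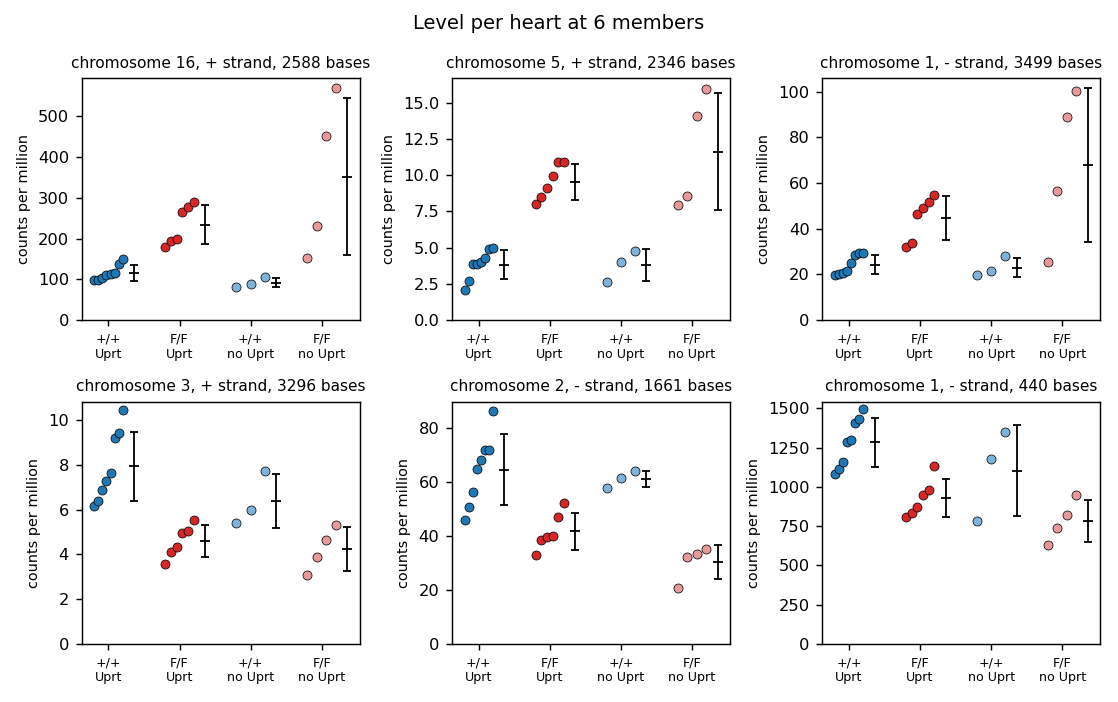
Level of each heart in CPM (vertical axis) at 3 members higher in Lmna F/F Uprt hearts (upper row) and 3 lower (lower row), with 1 point per heart in the 4 groups along the horizontal axis and the mean with its SD beside the points. At the chromosome 16 locus the 10 Lmna F/F hearts lie at 152 to 569 and the 11 Lmna +/+ hearts at 81.5 to 149.

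The hearts without Uprt gave the same genotype comparison in other animals. Here 28 members were higher in Lmna F/F (2.42%) and 50 were lower (4.33%), against 3.45% and 1.72% of all loci tested (edgeR, adjusted p of 0.05). In the other loci past the read minimum, 4.61% were higher and 3.98% were lower, so that the larger share of lower calls goes with the read minimum as well. That minimum of 300 reads was set on the Lmna +/+ groups alone, which favours loci whose level is lower in Lmna F/F, so the count of falls supports nothing about members. With library size alone the members split into 37 higher and 25 lower, and the median over all loci tested moved from 0.03 to 0.17.

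These counts rested on few hearts. Leaving out each of the 7 libraries in turn gave 12 to 40 higher and 8 to 85 lower members. The counts of higher and lower were 12 and 8 without Lmna F/F no Uprt replicate 1, 16 and 23 without replicate 2 of that group, and 85 lower without its replicate 3. In the Lmna +/+ group they were 17 and 14 when replicate 1 was left out, 16 and 22 for replicate 2, and 16 and 25 for replicate 3. Leaving out both replicate 1 and replicate 2 of the Lmna F/F group left 2 higher and 0 lower. With the 7 hearts fitted alone there were 0 in either direction.

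Among the 5 largest falls without Uprt, chr14:51126039-51128845 (minus strand) had the most reads. It had 22.9, 15.2 and 15.9 CPM in the 3 Lmna +/+ hearts and 2.44, 6.50, 5.30 and 9.61 CPM in the 4 Lmna F/F hearts, with no overlap. The log2 fold change was -1.53 ± 0.31 (SE, adjusted p = 0.0041 in edgeR), and with Uprt it was -0.65 ± 0.22 (SE, adjusted p = 0.13). The other 4, at chr17:27244311-27245667, chr9:65295966-65297557, chr2:71344968-71346299 and chr13:74179535-74183872, had log2 fold changes from -1.65 to -1.50. With Uprt their estimates were -0.34 to -0.02 and none passed the threshold. The first 2 of the 4 lay near the read minimum in the group that set it, with 411 and 344 pooled reads in Lmna +/+ hearts without Uprt against 189 and 245 in the Lmna F/F hearts without it. The calls at the 4 were lost, in that order, without any of Lmna +/+ no Uprt replicates 2 and 3 or Lmna F/F no Uprt replicates 1 and 2, without any of Lmna +/+ replicates 1 and 2 or Lmna F/F replicates 1, 2 and 4, without any of the 3 Lmna +/+ replicates or Lmna F/F replicates 1 and 2, and without Lmna +/+ replicate 1. The 5 largest rises without Uprt were at the chromosome 2, 16, 6, 1 and 5 loci described above for hearts with Uprt, with log2 fold changes from 1.56 to 2.10. When replicates 1 and 2 of the Lmna F/F group were both left out, the calls on chromosomes 16 and 1 held and the other 3 were lost, and with the 7 hearts fitted alone all 5 were lost (adjusted p from 0.080 to 0.13 in edgeR).

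The 2 comparisons share no animal, but both come from 1 fit over the 21 libraries. That fit has a common sex term and a common estimate of the variation between hearts, so the calls are not independent. Of the 28 members called with Uprt, 26 had the same sign without it, and of the 78 called without Uprt, 76 had the same sign with it. Over all loci tested the corresponding numbers were 757 of 768 and 1563 of 1619. A total of 17 members were called in both, 13 higher and 4 lower, which is 60.7% of the list with Uprt and 21.8% of the list without. The read minimum, set on the Lmna +/+ groups alone, favours the 4 lower ones. Over all loci tested 491 were called in both, 63.9% and 30.3% of the lists. The loci called in both were 1.47% of members, 1.57% of all loci tested and 2.32% of the other loci past the read minimum. The difference between the genotype effects, tested directly, passed the threshold at 0 of 1155 members and 0% of all loci in edgeR, with 128 members (11.1%) at an unadjusted p under 0.05 against 7.04% of all loci and 9.27% of the other loci past the read minimum. DESeq2 also gave 0 members.

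**Figure D5:**
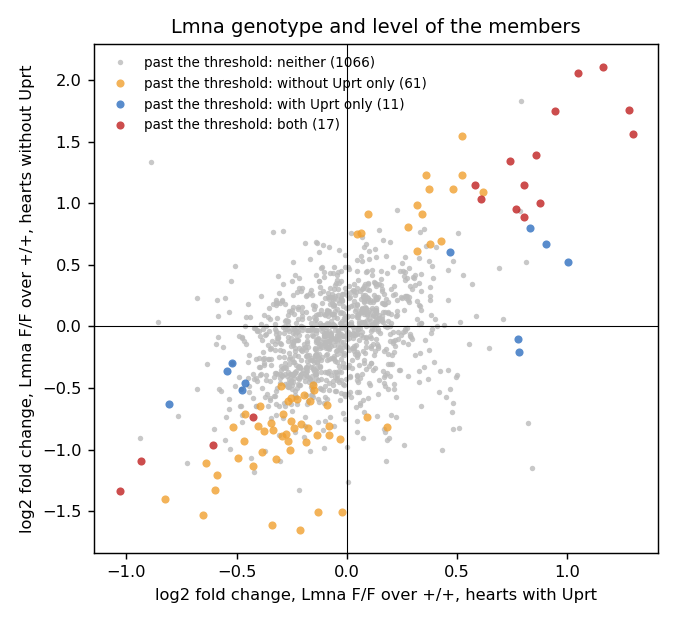
Log2 fold change of Lmna F/F over Lmna +/+ for each of the 1155 members in hearts with Uprt (horizontal axis) and in hearts without it (vertical axis), coloured by the comparisons in which the member passed an adjusted p of 0.05. The 17 members called in both comparisons lie in the upper right (13) and lower left (4) of the plot.

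The transgene itself went with no level change of a member that passed the threshold. Between Lmna F/F hearts with and without Uprt, edgeR called 0 of 1155 members, against 0.0223% higher and 0.0128% lower over all loci tested. At an unadjusted p under 0.05 there were 164 members (14.2%), against 11.1% of all loci tested and 16.9% of the other loci past the read minimum, and DESeq2 called 4 higher and 2 lower. Without Lmna F/F no Uprt replicate 4 there were 2 higher and 1 lower, and without replicate 3 of that group there were 3 lower.

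Labelled reads alone, those with a conversion, were compared between Lmna genotypes in the hearts with Uprt. Of 1082 members with enough of them, 1 was higher in Lmna F/F and 1 was lower, against 0.413% and 0.0769% of all 10406 loci tested (edgeR, adjusted p of 0.05). The Lmna +/+ arm was chosen for a high share, so a shift of members towards lower values in Lmna F/F is built in. The median log2 fold change of members was -0.09, against -0.01 over all loci tested.

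The member with more labelled reads was chr1:167050452-167053950, the risen locus with an even label. Its labelled reads are given as CPM scaled to the labelled reads of each library alone. They cannot be set against its CPM of all reads. The values were 35.8, 52.4 and 82.4 in Lmna +/+ Uprt hearts and 68.6, 101 and 145 in Lmna F/F Uprt hearts. The groups overlapped slightly, and the log2 fold change was 1.06 ± 0.19 (SE, adjusted p = 0.0073 in edgeR), close in size to the 0.94 of all its reads. The member with fewer was the split locus chr9:37449079-37449615, at -3.92 ± 0.75 (SE, adjusted p = 0.013), whose call was lost without Lmna +/+ Uprt replicate 7, Lmna F/F Uprt replicate 1 or Lmna F/F Uprt replicate 5. Leaving out Lmna +/+ Uprt replicate 3 or 8 gave 2 higher members, and leaving out Lmna +/+ Uprt replicate 4 or Lmna F/F Uprt replicate 3 gave 2 lower.

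The T>C share itself was then compared between Lmna genotypes. With Uprt, 0 of 1155 members passed the threshold in edgeR, against 0.0122% in each direction over all 16456 loci tested, and 34 members (2.94%) had an unadjusted p under 0.05 against 3.63% of all loci tested. The median log2 odds ratio of Lmna F/F over Lmna +/+ was -0.05 in members and 0.05 over all loci tested. The loci chosen by the same rule in Lmna F/F had a median of 0.15. The sign of the median thus followed the genotype used for the choice, and the 506 loci that met the rule in both genotypes had 0.05.

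Without Uprt, 0 of the 1010 members tested passed, against 0% of all 12824 loci, with 39 members (3.86%) at an unadjusted p under 0.05 against 3.13% of all loci tested. Without Lmna F/F no Uprt replicate 1 there was 1 higher. The median was 0.43 in members, -0.33 in the loci chosen in Lmna F/F and -0.02 in the 419 loci of both lists that were tested. Members were chosen for a share of at most 3% in the Lmna +/+ hearts without Uprt. A shift of members towards higher shares in Lmna F/F is therefore built in, in the median and in the count at an unadjusted p. A missed threshold does not show equal shares, and the shallow members allowed wide differences: at chr19:27311324-27314579 a library held as few as 22 reads, where 4.55% has a 95% Wilson interval of 0.807% to 21.8%. Intervals of this kind cover counting error only.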

How the data were processed

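RNA of 21 mouse hearts was read with 100-base single-end 3′ libraries, 1 per mouse, per the labels' protocols. The deposited table gives counts per 3′ UTR interval and library, in a SlamDunk column layout per the file headers: reads, T>C reads, multimapped reads, read bases over reference T and conversions among them. The deposited CPM column was treated as a score and not used, and interval length and T content are deposited properties. The submitters' processing notes name mm39 as the build. For the aligner, the annotation release and any filter on sequence variants, the entry is: not given in the sources used here.

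Of intervals overlapping on 1 strand, that with the most reads was kept. Members and gene lists were chosen with earlier results of these data known. Named loci were the 10 with the highest share, the 10 with the most reads, up to 10 per direction in level with Uprt and 5 without, all called in T>C reads or share between genotypes, and the 5 largest and 5 smallest Uprt differences in Lmna F/F. The 19 lists of 380 genes, cell type markers included, were not run, since 0 transcript IDs matched the reference.

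For levels, edgeR 4.0.16 (R 4.3.3) was fitted over the 21 libraries with a mean per group and a sex term, after filterByExpr (minimum count 10) and TMM, and the quasi-likelihood test was used. The 14 hearts with Uprt gave the same test of T>C reads. Shares were tested in edgeR on converted and unconverted reads with library effects, read type by group and by sex, at loci with 20 T>C reads in all and 10 reads in each library. Adjusted p-values are Benjamini-Hochberg over all loci, at 0.05. SE is the log2 value over the square root of the F statistic. CPM uses TMM-scaled library sizes. For T>C reads these sizes come from the T>C reads alone, so a change in labelling common to all loci is scaled out. Alternatives were DESeq2 1.42.0, its size factors, library size alone, no filter, no sex term, fewer groups, a quasi-binomial model with limma 3.58.1, conversions per reference T, other selection thresholds and each library left out. Added after seeing the data were the omission of chromosome 3, of members at 20% in a heart without Uprt, of members split between Uprt hearts (30% or more and under 10%, at least 20 reads each), of 2 Lmna F/F hearts together, single omissions for the difference in genotype effects and for the share without Uprt, and chained intervals (1154 members). Each test was first tested on simulated data. The simulated shares varied around a common value per locus, apart from the change put in, and held no split shares. All libraries carry 1 pool label, so no batch could be compared. The labels name 1 mouse per library. Replicate numbers are names given here and pair no hearts.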

Additional observations from a re-analysis of the deposited data

Results flagged for a closer look

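In 156 sets of 4 to 8 hearts of a group, the distance of the highest or lowest heart from its nearest neighbour was compared with the whole range (Dixon's test at 95%), and in 19 of these sets a heart stood apart, in some of them the same mouse. Chance alone gives about 1 in 20, and loci chosen for split shares add to it.

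Of the sums over members, Lmna +/+ Uprt replicate 3 stood apart in 2 measures, its summed T>C share of 15.0%, with the next at 11.5%, and its 0.654 conversions per 100 reference T, with the next at 0.497. Members took 2.18% of the reads of Lmna +/+ Uprt replicate 7, with the next at 1.96%.

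Of the T>C shares, Lmna +/+ Uprt had a heart at 0% at chr4:108896954-108897111, where the others had 36.6% or more. Lmna F/F Uprt had a lowest heart at chr8:84972867-84973181 (2.86%) and chr8:65045576-65046156 (1.07%), the same mouse, replicate 1, in both cases. It had a highest heart at chr4:132039074-132039180 (73.8%), chr18:61263553-61265221 (42.4%) and chr17:79230665-79230765 (33.3%), each time replicate 3. Lmna F/F no Uprt had a lowest heart at chr8:95580778-95581523 (3.22%) and chr7:138492565-138493643 (1.31%), both replicate 1. It had a highest heart at chr11:4734436-4734563 (38.7%), chr4:151131757-151133486 (40.4%) and chr4:118219781-118219941 (48.9%).

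Of the levels in CPM, Lmna +/+ Uprt had a heart at 53.5 at chr18:61263553-61265221, at 10.5 at chr2:102641486-102644477 and at 2.70 at chr3:95416234-95416673. Lmna F/F Uprt had a heart at 3.13 at chr19:27311324-27314579. Lmna F/F no Uprt had a heart at 3.67 at chr9:65295966-65297557, where the next highest was 0.759.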

How the results depend on the processing

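The 1155 members became 268 with limits of 10% and 2%, and 554 with a minimum of 1000 reads. Members higher in level with Uprt (19) numbered 44 with library size alone and 30 without the low-count filter. Those lower (9) numbered 28 with DESeq2, 4 with library size alone, 29 without the filter and 30 with the 14 hearts alone. Without Uprt the 28 higher and 50 lower became 2 and 0 when replicates 1 and 2 of Lmna F/F no Uprt were both left out, and 0 and 0 with the 7 hearts alone, and the lower became 25 with library size alone. Between Uprt and none in Lmna F/F, DESeq2 gave 4 higher and 2 lower in level. Members with more labelled reads (1) numbered 4 with DESeq2 and 8 without the filter, and those with fewer (1) numbered 3, 11, and 0 without members at 20% in a heart without Uprt or without split members. The 1 member with a lower share under Uprt in Lmna F/F became 0 without either kind. Both kinds were defined with shares of the Lmna F/F hearts compared there, so that 0 follows from the omission. The cause of these moves was not tested, except that fewer samples or members are part of the omissions.

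With each library left out in turn, the counts of higher and lower ran from 12 to 21 and from 3 to 16 in level with Uprt, from 12 to 40 and from 8 to 85 without it, from 0 to 2 and from 0 to 3 for level with Uprt against none, from 1 to 2 and from 0 to 2 for labelled reads, from 615 to 752 and from 0 to 1 for the share with Uprt against none, and from 0 to 1 and 0 for the share between genotypes without Uprt. The counts of 0 for the share between genotypes with Uprt and for the difference in genotype effects stayed at 0. Of 686 values of 41 results at 34 named loci, 573 kept their direction and side of the threshold, 104 fell short of it, 1 passed it and 8 changed sign. The 8, none past the threshold, concern Uprt against none in the share: chr4:118219781-118219941 at -0.12 without the sex term and from -1.06 to 1.68 without single libraries (0.20 with all), chr17:79230665-79230765 at 1.69 with conversions per reference T, and chr11:12246363-12246523 from -2.60 to 1.03 without single libraries (-0.92 with all).

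No paired analysis was possible because the labels give no replicate numbers, and those used here only name hearts. Depth limits the shallow loci: named loci held 15 to 62990 reads in a library.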
